A study of Drosophila melanogaster with 3 samples.

Results

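The Beat, Side, Dpr and DIP genes encode 4 families of immunoglobulin-domain surface and secreted proteins, and the peaks of the GATA factor Grain (gene grn) in and around them were examined in Drosophila melanogaster embryos. Members were the protein-coding genes of the Ensembl annotation whose symbol begins with beat-, side- or DIP-, or with dpr and a number, together with side itself. There were 54 such genes among 13945 protein-coding genes, made up of 14 Beat, 8 Side, 21 Dpr and 11 DIP genes. Binding was measured by ChIP-seq with an antibody against GFP in whole embryos of 0 to 24 h, both sexes together, from a transgenic line that stably carried grn with a C-terminal GFP tag. All 3 samples were biological replicates of this 1 group, with no second genotype or condition. A peak was given to a gene when its summit lay in the gene body or within 1000 bp upstream of the 5′ end, here called the territory. The deposited lists on genome release 6 (dm6) were an optimal list of 6580 peaks, a pooled list of 30000 peaks made from all 3 replicates, and 1 list of 30000 peaks for each replicate. The optimal peaks were the 6580 strongest of the pooled list by the authors' signal value, so a pooled rank of 6580 is the optimal threshold. Per the authors' descriptions the pooled and replicate lists hold both peaks and background. Peaks and summits below the threshold are called weak here, and some of them may be background. No list gives a read count, so the depth of each sample is unknown, and in whole embryos fewer cells with binding and weaker binding per cell cannot be told apart.

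Beat and Side proteins form receptor and ligand pairs that guide motor axons. Beat-Ia is carried by motor axons and is needed for them to leave their bundle, and Side on the path to the muscles is its partner. Dpr and DIP proteins bind each other in selective pairs on neurons and their target cells and help neurons to choose partners at synapses. Grain, the fly member of the GATA2/3 group, acts in the dorsally projecting motor neurons, where genetic work placed it with Eve and Zfh1 above unc-5, beat-Ia, Fas2 and Nrg.

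The windows below show the DNA under 5 of the 8 optimal Grain summits in these genes and under 6 weaker ones, to let the letters be read beside the ranks. They are examples picked after the values were seen, and the optimal summits of side-V and dpr5 are not among them. Each runs 50 bp to either side of the summit on the plus strand of dm6, and capitals mark GATA hexamers on either strand, which were AGATAA or the same with a final G (AGATAG), and TGATAA or the same with a final G (TGATAG). Of all optimal summits, 46.2% had such a hexamer in a window of this size. Of the 129 member summits below the optimal threshold 26 had one (20.2%), a smaller share than among the 6 weaker windows printed, where 4 did. The first 5 are optimal summits in dpr6 (3 summits), dpr14 and beat-Ib. The other 6 lie below the optimal threshold, in introns of dpr6, DIP-alpha, beat-IIb, beat-VI and beat-Ia and in the promoter of dpr19.
dpr6, pooled rank 520, chr3L:10092398-10092498: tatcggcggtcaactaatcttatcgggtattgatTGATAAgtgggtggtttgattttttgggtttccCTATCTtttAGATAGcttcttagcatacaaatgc
dpr6, pooled rank 2627, chr3L:10094859-10094959: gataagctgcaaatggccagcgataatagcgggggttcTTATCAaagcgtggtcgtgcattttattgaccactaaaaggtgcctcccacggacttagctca
dpr6, pooled rank 2647, chr3L:10088581-10088681: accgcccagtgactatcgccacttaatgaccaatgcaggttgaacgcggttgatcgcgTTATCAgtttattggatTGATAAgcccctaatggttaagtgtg
dpr14, pooled rank 4288, chrX:7908763-7908863: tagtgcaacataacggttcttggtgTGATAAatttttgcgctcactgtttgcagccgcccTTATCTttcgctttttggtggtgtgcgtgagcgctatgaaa
beat-Ib, pooled rank 829, chr2L:15911297-15911397: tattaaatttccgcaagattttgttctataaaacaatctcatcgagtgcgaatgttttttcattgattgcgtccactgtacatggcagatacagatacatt
dpr6, pooled rank 6729, chr3L:10092601-10092701: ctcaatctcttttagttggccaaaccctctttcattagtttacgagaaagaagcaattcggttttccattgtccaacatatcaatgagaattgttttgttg
DIP-alpha, pooled rank 6865, chrX:3546211-3546311: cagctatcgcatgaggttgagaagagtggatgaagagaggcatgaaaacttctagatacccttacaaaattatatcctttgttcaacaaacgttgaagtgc
dpr19, pooled rank 9526, chr2L:10376060-10376160: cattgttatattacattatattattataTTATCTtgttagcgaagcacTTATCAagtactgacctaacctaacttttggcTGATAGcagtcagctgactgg
beat-IIb, pooled rank 7012, chr3R:17237033-17237133: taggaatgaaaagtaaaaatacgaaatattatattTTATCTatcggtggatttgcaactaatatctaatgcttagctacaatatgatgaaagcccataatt
beat-VI, pooled rank 13911, chr3R:28454567-28454667: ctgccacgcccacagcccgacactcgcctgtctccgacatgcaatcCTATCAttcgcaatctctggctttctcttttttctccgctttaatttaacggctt
beat-Ia, pooled rank 16459, chr2L:16069860-16069960: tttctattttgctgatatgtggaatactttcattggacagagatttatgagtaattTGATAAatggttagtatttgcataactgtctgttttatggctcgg
The 3 optimal dpr6 windows held 3, 1 and 2 hexamers, and the dpr14 and dpr19 windows held 2 and 3. The beat-Ib window held none, although beat-Ib had the strongest peak of the Beat family. The windows of dpr6 at rank 6729 and of DIP-alpha, just outside the threshold, held none either. That dpr6 peak overlaps the dpr6 peak of rank 520, whose window held 3, and whether it is a separate site was not tested. Both were given the replicate ranks 415, 483 and 886, since a peak takes the rank of the strongest overlapping replicate peak. A match is a description of the letters and not evidence that Grain touches them.

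Strong Grain peaks were sparse in the Beat, Side, Dpr and DIP genes. An optimal summit lay in 5 of the 54 members, or 9.26% (95% Wilson interval 4.02% to 19.9%), against 25.5% of all protein-coding genes. The 5 were dpr6, with 3 summits, side-V with 2, and beat-Ib, dpr14 and dpr5 with 1 each. Gene length ran the other way, since the members had a median length of 36154 bp against 2166 bp for all protein-coding genes, and long genes hold more summits. Among genes of 10 kb or more, 3 of 44 members held an optimal summit, or 6.82% (95% Wilson interval 2.35% to 18.2%), against 56.3% of all such genes. Among genes of 30 kb or more the count was 3 of 33 members, against 59.7% of all such genes. The 10 members under 10 kb included dpr14 and dpr5, 2 of 10, against 20.4% of all genes of that length, so the short members did not stand below their background. Wilson and Poisson intervals here cover counting error only.

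Per length of DNA, the members' territories held 8 optimal summits in 2576 kb, or 0.311 per 100 kb (95% Poisson interval 0.134 to 0.612). The territories of all protein-coding genes held 5.75 per 100 kb, an 18.5-fold higher density, and those of genes of 10 kb or more held 5.07 per 100 kb. The same was seen in each replicate. Among the 6580 strongest peaks, the members held 0.427 summits per 100 kb in replicate 1, 0.544 in replicate 2 and 0.505 in replicate 3, against 5.79, 5.88 and 5.65 per 100 kb for all protein-coding genes in replicates 1, 2 and 3. The replicates did not overlap between these sets of genes. The difference was -5.28 ± 0.118 summits per 100 kb (SD, n = 3), with the members lower in 3 of 3 replicates (exact paired permutation test, two-sided; p = 0.25 is the lowest possible with 3 replicates). By genes, 6 members (11.1%) held one of these strongest summits in replicate 1, against 26% of all protein-coding genes. In replicate 2 it was 6 members (11.1%) against 28.3%, and in replicate 3 it was 7 members (13%) against 24.7%.

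The whole pooled list, which holds peaks and background, reached many more of the members. With all 30000 pooled peaks, 29 of 54 members held a summit (53.7%), against 47.4% of all protein-coding genes. Among genes of 10 kb or more it was 24 of 44 members (54.5%) against 80.6% of all such genes. Over the pooled and the 3 replicate lists, 39 of those 44 members held a summit in at least 1 list (88.6%), against 94.2%. The members' pooled summits numbered 137, or 5.32 per 100 kb (95% Poisson interval 4.47 to 6.29), against 24.4 per 100 kb for all protein-coding genes, a 4.58-fold gap. They were also weaker, with a median pooled rank of 20204 against 14282 for summits in all protein-coding genes. The authors' −log10 q-value was 0.882 at the member summit of rank 20204, in side-V, against a cap of 4.21 in the optimal list. Many of these summits may therefore be background. Only 5.84% of the members' pooled summits were optimal, against 21.9% of all pooled peaks.

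**Figure D1:**
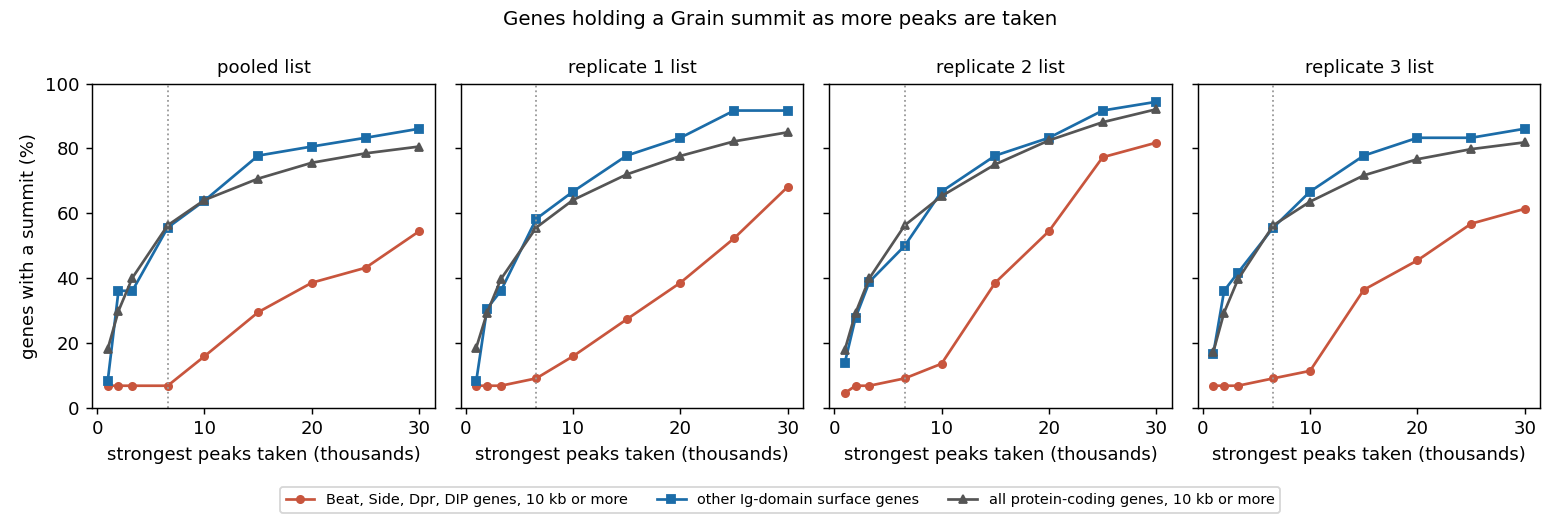
Share of genes with a Grain summit in their territory (y axis, percent) as more of the strongest peaks are taken (x axis, in units of 1000 peaks), in the pooled list and in each replicate list. Red circles are the 44 Beat, Side, Dpr and DIP genes of 10 kb or more, blue squares the 36 other Ig-domain surface genes of any length, grey triangles all 1977 protein-coding genes of 10 kb or more, and the dotted line marks 6580 peaks. In the pooled panel the red curve is at 6.82% up to 6580 peaks and at 54.5% at 30000, while the grey curve is at 56.3% and 80.6%.

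The plot of genes by rank shows where the members entered the lists. In the pooled list, 6.82% of the members of 10 kb or more had a summit among the 1000 strongest peaks, against 18.2% of all genes of that length. That share was still 6.82% at 6580 peaks, since dpr6, side-V and beat-Ib were the only long members up to that rank. It was 15.9% at 10000 peaks, against 64.1%, and 38.6% at 20000 peaks, against 75.6%. Of the 24 members with a pooled but no optimal summit, 6 had their strongest peak between the threshold and rank 10000, and 18 had it past rank 10000. The nearest on either side of the threshold were the second peak of side-V at rank 5704, inside it, and further dpr6 summits at ranks 6729 and 6731, outside it. The summit at rank 6729 lay in a peak that overlaps the optimal dpr6 peak of rank 520.

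The families differed in how many weak peaks they held. The Side genes, transmembrane partners of the Beat proteins, held 50 pooled summits in 424.8 kb, or 11.8 per 100 kb. The Beat genes held 39 in 539.2 kb, or 7.23 per 100 kb, and the Dpr genes held 41 in 911.1 kb, or 4.5 per 100 kb. The DIP genes held 7 in 700.4 kb, or 1 per 100 kb to the nearest whole number, and no optimal summit. Of these 7, DIP-alpha held 6, and without DIP-lambda, the longest member with a territory of 380081 bp and no summit in any list, the DIP density was 2.19 per 100 kb, a value worked out after the data had been seen. Among the 6580 strongest peaks of replicates 1, 2 and 3 the Side genes held 3, 5 and 1 summits, the Beat genes 2, 3 and 3, the Dpr genes 6, 6 and 8, and the DIP genes 0, 0 and 1. With counts this small the order of the Side and Beat families was not the same in every replicate, while the DIP genes had the fewest summits in replicates 1 and 2 and tied with the Side genes in replicate 3. These counts come from few genes, and 4 members, side-V, beat-IIIc, dpr6 and dpr8, held 71 of the 137 pooled summits (51.8%).

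**Figure D2:**
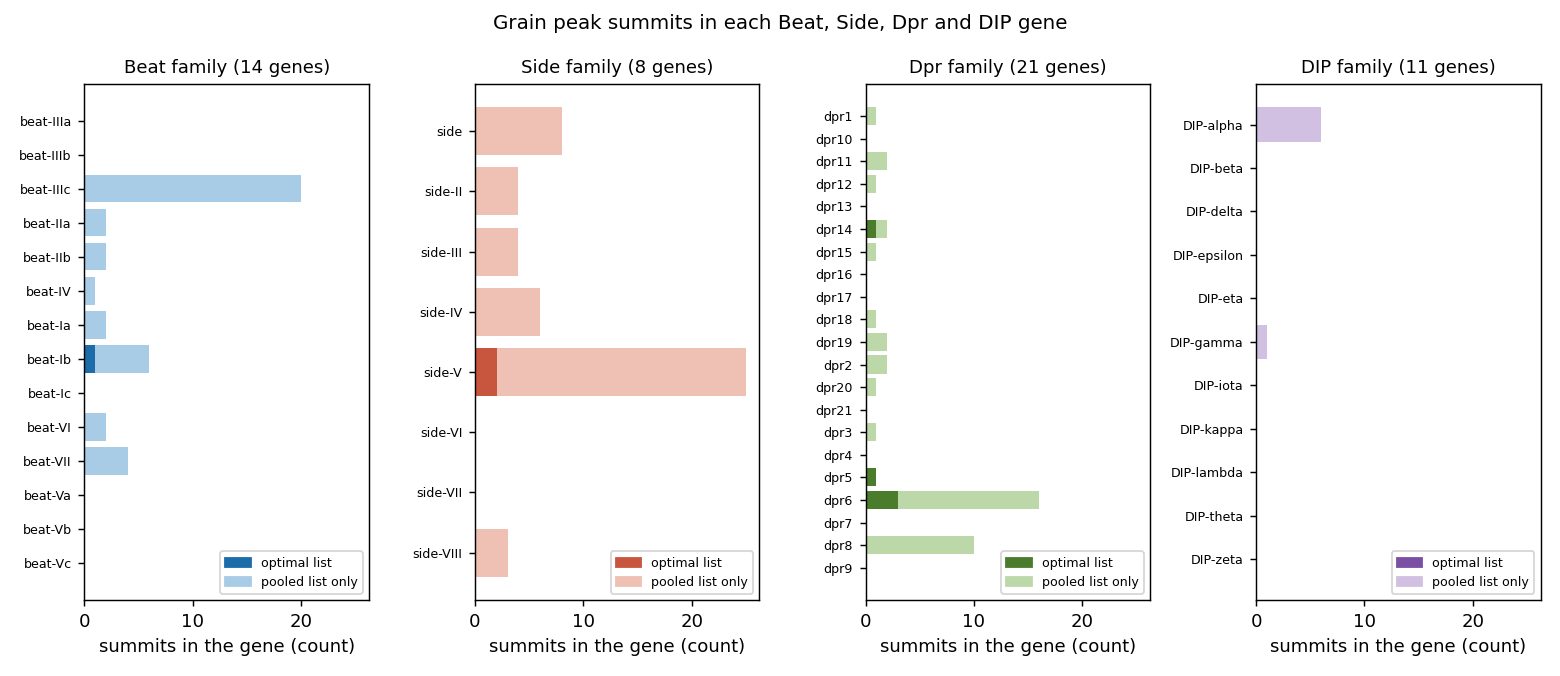
Number of Grain summits (x axis, count) in the territory of each Beat, Side, Dpr and DIP gene (y axis), with optimal summits in dark and other pooled summits in light colour. The longest bars are side-V with 25 summits, beat-IIIc with 20, dpr6 with 16 and dpr8 with 10, and 25 genes have no bar.

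In the Beat family, beat-Ib had 1 optimal summit and 6 pooled summits. The other 13 Beat genes had no optimal summit. Of these, beat-IIIc had 20 pooled summits, beat-VII had 4, beat-Ia, beat-IIa, beat-IIb and beat-VI had 2 each, and beat-IV had 1. The pooled list held no summit in beat-Ic, beat-IIIa, beat-IIIb, beat-Va, beat-Vb and beat-Vc. In the Side family, side-V had 2 optimal and 25 pooled summits. No optimal summit lay in side (8 pooled), side-IV (6), side-II (4), side-III (4), side-VIII (3), side-VI (0) and side-VII (0).

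In the Dpr family, dpr6 had 3 optimal and 16 pooled summits, dpr14 had 1 and 2, and dpr5 had 1 and 1. The other 18 Dpr genes had no optimal summit. Of these, dpr8 had 10 pooled summits, dpr2, dpr11 and dpr19 had 2 each, and dpr1, dpr3, dpr12, dpr15, dpr18 and dpr20 had 1 each. The pooled list held none in dpr4, dpr7, dpr9, dpr10, dpr13, dpr16, dpr17 and dpr21. In the DIP family, DIP-alpha had 6 pooled summits and DIP-gamma had 1, none of them optimal. The pooled list held none in DIP-beta, DIP-delta, DIP-epsilon, DIP-eta, DIP-iota, DIP-kappa, DIP-lambda, DIP-theta and DIP-zeta. A group of 8 genes, beat-IIIb, dpr4, dpr7, dpr21, DIP-delta, DIP-iota, DIP-lambda and DIP-zeta, had no summit in the pooled list or in any replicate list. Among genes of 10 kb or more, a summit in at least 1 of these lists was held by 88.6% of members and 94.2% of all genes. For shorter genes that share was not worked out.

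The strongest peak in any member lay in an intron of dpr6, whose protein binds DIP-α. It covered chr3L:10092285-10092603, with a signal of 441 on the authors' own scale and pooled rank 520. In replicates 1, 2 and 3 the overlapping peaks ranked 415, 483 and 886 (mean 595 ± 255, SD, n = 3). The other optimal peaks of dpr6 were chr3L:10094794-10095023, which ranked 2929, 2804 and 2599 in the replicates (mean 2777 ± 167), and chr3L:10088521-10088766, which ranked 2828, 3180 and 2811 (mean 2940 ± 208). All 3 lay within the 6580 strongest peaks of every replicate. The 3 summits were 113980 to 120258 bp from the 5′ end of dpr6, deep in the gene. Each was close to the start of a small protein-coding gene nested in dpr6, at 102 bp from a transcription start site (TSS) of CG32053, 171 bp from one of CG32054 and 769 bp from one of CG14160. Which of these genes the peaks belong to was not tested.

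The other gene with more than 1 optimal peak was side-V. Its stronger peak, chr2R:23180778-23181393, had pooled rank 545 and a signal of 434, and ranked 466, 1059 and 405 in replicates 1, 2 and 3 (mean 643 ± 361, SD, n = 3). It had no GATA hexamer within 50 bp of its summit. Its weaker peak, chr2R:23186029-23186488, ranked 4849, 5492 and 7180 (mean 5840 ± 1204), so in replicate 3 it fell outside the 6580 strongest, and its window held 2 AGATAA. Both were intronic, at 2805 and 1851 bp from the nearest TSS, that of CG13539 inside the gene. With 25 pooled summits in a territory of 41962 bp, side-V was the most densely covered member, at 59.6 per 100 kb.

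The Beat family's 1 optimal peak, in beat-Ib at chr2L:15911182-15911529, had pooled rank 829 and a signal of 367. It ranked 783, 581 and 990 in replicates 1, 2 and 3 (mean 785 ± 204, SD, n = 3), among the 1000 strongest in each. Its summit lay 51088 bp into the gene, in an intron, 344 bp from a TSS of the long non-coding RNA gene lncRNA:CR44867. The dpr14 peak, chrX:7908583-7909042, ranked 3777, 5962 and 4274 (mean 4671 ± 1145). Its summit lay 527 bp upstream of dpr14 but 118 bp from a TSS of the divergent gene spidey, which encodes a fatty acid elongation enzyme. The dpr5 peak, chr3R:11499874-11500333, ranked 5146, 5291 and 4270 (mean 4902 ± 552), in the 5′ UTR 120 bp from the gene's own TSS, with no hexamer in its window. It was the only optimal summit within 500 bp of a member's own TSS, 1 of 54 members (1.85%) against 17.5% of all protein-coding genes.

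**Figure D3:**
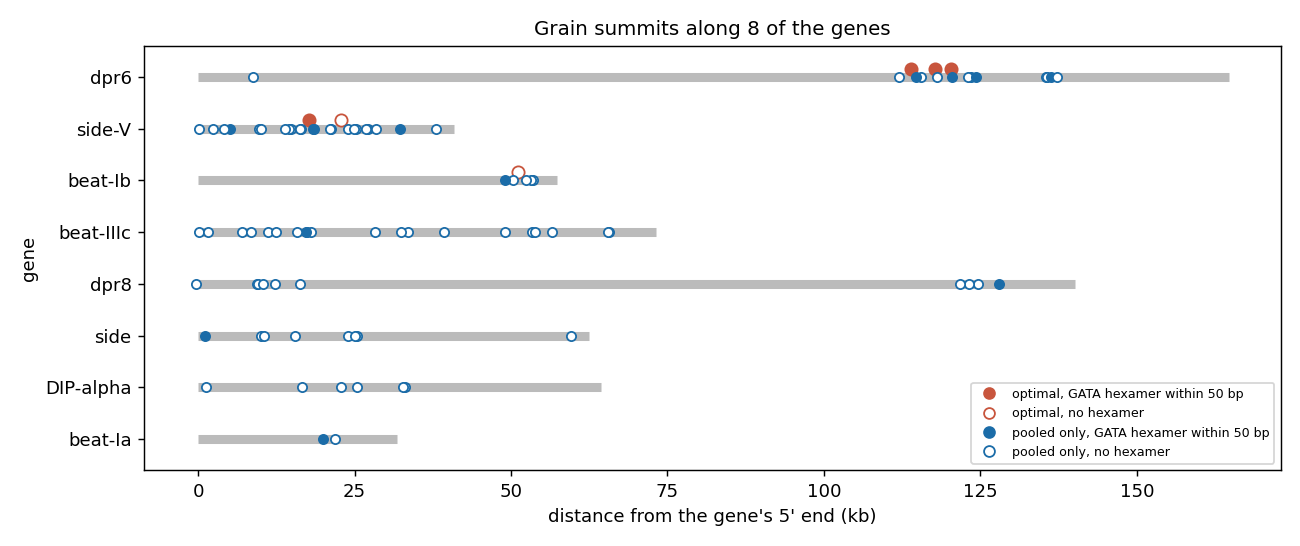
Position of every pooled Grain summit along 8 of the genes (x axis, kb from the gene's 5′ end, and a grey bar for the gene body). Large red circles, drawn above the bar, are optimal summits and small blue circles the other pooled summits, and filled circles have a GATA hexamer within 50 bp. The 3 optimal summits of dpr6 are all filled and lie between 113980 and 120258 bp, while beat-IIIc has 20 blue summits spread over its body and beat-Ia has 2.

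Of the 8 optimal summits in members, 4 thus also lay in the territory of another protein-coding gene, namely the 3 in dpr6 and the 1 in dpr14. With such summits left out, a choice made after the data had been seen, 3 members kept an optimal summit, side-V, beat-Ib and dpr5, against 14.5% of all protein-coding genes. By nearest protein-coding TSS instead of territory, 4 members (7.41%) were assigned an optimal summit, against 24.3% of all protein-coding genes. These were dpr5, beat-IIIc at 3724 bp, DIP-delta at 11206 bp, and side-IV with 2 summits, the closer at 4359 bp. The last 3 are cases of strong peaks outside the territory. For the 49 members with no optimal summit the nearest one lay a median of 24528 bp beyond the territory, 11 of them had one within 10 kb, and the shortest distance was 2181 bp, at dpr19. The same distances were not worked out for other genes, so whether they are long or short for such genes is unknown.

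A chosen set of known binding partners was compared pair by pair, over 9 pairings with 26 genes. It is not a full list of partners. Of the members with an optimal summit it held dpr6, but not side-V, beat-Ib, dpr14 or dpr5, so its counts of optimal summits depend on this choice. A side was counted when at least 1 of its genes held a pooled summit, even where others, such as dpr10, dpr16 and dpr17, held none. Both sides held a pooled summit in 5 pairings, 1 side in 2, and neither side in 2. Pooled summits are common, being held by 47.4% of all protein-coding genes and 80.6% of those of 10 kb or more. No pairing had an optimal summit on both sides, and 1 had it on 1 side. Beat-Ia and Side are the pair that guides motor axons to the muscles. In beat-Ia the strongest peak in the territory ranked 15228, 14017 and 24809 in replicates 1, 2 and 3, and in side it ranked 20060, 16935 and 13012. Neither gene came near rank 6580 in any replicate.

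In the pairing of dpr6 and dpr10 with DIP-alpha, in which Dpr10 on muscles meets DIP-α on motor neurons, the strong peaks were in dpr6. DIP-alpha had a strongest peak at 11815, 10744 and 3980 in replicates 1, 2 and 3, so it was among the 6580 strongest in replicate 3 only, and its pooled rank was 6865. In dpr10 the ranks were 26511, 29747 and 16718, with no pooled summit. The 3 genes therefore differed widely in their strongest peak.

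In the pairing of beat-IIa and beat-IIb with side-IV, beat-IIb and side-IV had pooled ranks of 7012 and 7676. The strongest peak ranked 7039, 12539 and 9197 in beat-IIb, 18286, 12977 and 18345 in beat-IIa, and 7818, 4111 and 11127 in side-IV, in replicates 1, 2 and 3. Of these genes, side-IV passed rank 6580 in replicate 2, and none did in replicates 1 and 3. For beat-VI the ranks were 14977, 18850 and 17057, and for its partner side-II they were 15685, 17710 and 14901. The strongest pooled summit of side-II, at rank 17415, lay 49 bp upstream of the gene's own TSS. For beat-Va, beat-Vb and beat-Vc and their partner side-VI the pooled list held nothing, and the strongest replicate peak in the 4 genes was at 13814, in side-VI in replicate 3.

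The remaining Dpr and DIP pairings held weak peaks at most. Dpr11 and DIP-γ pair between R7 photoreceptors and their targets. In dpr11 the strongest peak ranked 28793, 11100 and 12426 in replicates 1, 2 and 3, and in DIP-gamma it ranked 22637 in replicate 1 and 21709 in replicate 3, with no summit in replicate 2. In dpr15, dpr16 and dpr17, further partners of DIP-γ, the strongest of all replicate peaks was at 13943, in dpr16 in replicate 2. Dpr12 and DIP-δ are known as a pair of the mushroom body. In these whole embryos dpr12 had ranks of 27593, 9680 and 18033, and DIP-delta had no summit in any list. For dpr2 the ranks were 10056, 13817 and 12343, and for dpr3 they were 21063, 14997 and 23914, while their partner DIP-theta had 1 summit, at 21177 in replicate 2. In the pairing of dpr7 with DIP-kappa, dpr7 had no summit in any list and DIP-kappa had its strongest at 12203, 11733 and 11698.

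**Figure D4:**
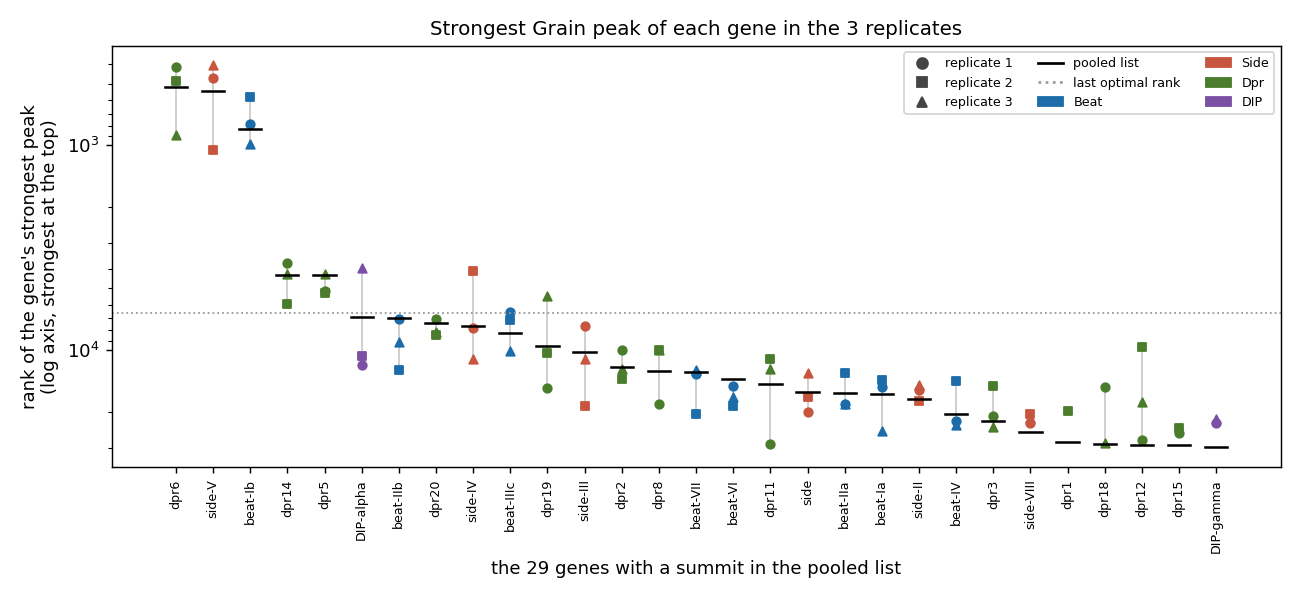
Rank of the strongest Grain peak in each of the 29 genes with a pooled summit (y axis, log scale, strongest at the top), with a circle, square and triangle for replicates 1, 2 and 3, a black bar for the pooled list and a colour for each family. The dotted line is rank 6580. In dpr6, side-V, beat-Ib, dpr14 and dpr5 all 3 replicates lie above the line, and in DIP-alpha, side-IV, dpr19 and beat-IIIc 1 replicate does.

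A list of 36 other Ig-domain surface genes, with a median length of 38989 bp, was set beside the members. An optimal summit lay in 5 of 54 members (9.26%), against 20 of the 36 other Ig-domain genes (55.6%) and 25.5% of all protein-coding genes. Among genes of 10 kb or more it was 3 of 44 members and 16 of 28 other Ig-domain genes, against 56.3% of all such genes. The other Ig-domain genes were thus near the share for genes of that length. Per length the members held 0.311 optimal summits per 100 kb and the other Ig-domain genes 2.99 (95% Poisson interval 2.27 to 3.87), and both were below the 5.75 of all protein-coding genes. For pooled summits the values were 5.32 per 100 kb in the members and 19.96 in the other Ig-domain genes. That list was chosen with results of these data known, so the contrast is a description.

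Of the 4 genes that genetics placed below Grain in motor neurons, beat-Ia is the member. It had no optimal summit, and its 2 pooled summits, intronic at 19945 and 21923 bp from the 5′ end, ranked 16459 and 21394. The other 3 all had optimal summits. All 3 are longer than 10 kb, and 56.3% of all protein-coding genes of 10 kb or more held an optimal summit. The repulsive netrin receptor gene unc-5 had 7, the strongest at pooled rank 1131 and at 1164, 3243 and 734 in replicates 1, 2 and 3. The homophilic adhesion gene Fas2 had 2, the strongest at 1862 and at 2196, 2374 and 1876. The L1-type adhesion gene Nrg had 1, at 4840, which ranked 4123, 6321 and 6658 and so left the 6580 strongest in replicate 3. The strongest peaks on the Ig-domain list were in Fas3, a homophilic adhesion gene (pooled rank 156), fra, the attractive netrin receptor gene (204), robo2, a Slit receptor gene (502), and Ama, which encodes a secreted Ig protein (1065). They ranked 156, 127 and 244 in Fas3 and 212, 405 and 140 in fra, in replicates 1, 2 and 3. In robo2 they ranked 487, 1430 and 384, and in Ama 1149, 1659 and 848.

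Most Grain summits in the members were intronic, at a share like that of other long genes. Of the 137 pooled summits, 117 were in introns (85.4%), 12 upstream, 5 in 5′ UTRs, 2 in 3′ UTRs and 1 in coding sequence. The intronic share was 61.9% over all other protein-coding genes, 83.8% over those of 10 kb or more and 89.4% over those of 30 kb or more. A distance of over 1000 bp to any TSS was found for 100 (73.0%), against 61.2% of all other pooled summits, and a distance within 500 bp for 25 (18.2%), against 28.0%. A pooled summit within 500 bp of an own TSS was held by 7 members (13%), against 39.1% of all protein-coding genes. These were beat-IIIc, side-II, side-IV, side-V, dpr5, dpr8 and dpr19. The dpr19 summit, 58 bp upstream, had 3 hexamers in its window yet ranked 15398, 10318 and 5429 in replicates 1, 2 and 3.

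Among the stronger summits the members' share near a TSS was higher in replicates 1 and 3, and hardly so in replicate 2, on few summits. The members held 11, 14 and 13 summits among the 6580 strongest peaks of replicates 1, 2 and 3. Of these, 54.5%, 42.9% and 61.5% lay within 500 bp of a TSS, against 40.6%, 42.0% and 38.6% of all other summits. The difference was 12.6 ± 11.1 percentage points (SD, n = 3, exact paired permutation test, two-sided, p = 0.25), above 0 in 3 of 3 replicates but with a spread almost as large as its mean. With all 30000 peaks it reversed, at 22.7%, 15.2% and 17.97% in the members against 29.4%, 30% and 28.3% elsewhere (-10.6 ± 4.08 points, exact p = 0.25, the lowest possible). Of the members' strong summits, dpr6 alone held 4 in each replicate. On the optimal list 5 of 8 member summits lay within 500 bp of a TSS. Only that of dpr5 was near its gene's own TSS, and the others were near those of CG32053, CG32054, spidey and lncRNA:CR44867.

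GATA hexamers were looked for under the members' strong and weak summits. Within 50 bp of the summit a hexamer was found at 5 of 8 optimal summits in members (62.5%, 95% Wilson interval 30.6% to 86.3%), against 46.2% of all optimal summits. In windows of the same size 500 bp to the right it was 2 of 8 (25%) in the members and 18.5% for all optimal summits. In windows 500 bp to the left it was 50% in the members and 18.2% for all optimal summits, so with 8 summits the level beside the summit depended on the side. Below the optimal threshold it was 26 of 129 (20.2%) in the members against 28.5% of all other such summits. Of the 31 member pooled summits that held a hexamer, 9 were among the 16 pooled summits of dpr6 and 7 among the 25 of side-V. Over all the members' pooled summits the share was 22.6%.

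By replicate, 36.4%, 57.1% and 38.5% of the members' 11, 14 and 13 summits among the 6580 strongest peaks held a hexamer in replicates 1, 2 and 3. Their flanks 500 bp to the right held one in 9.09%, 21.4% and 23.1%, and all other summits in 44.9%, 43.5% and 44.1%. Summits exceeded these right flanks in every replicate, by 26.1 ± 10.2 percentage points (SD, n = 3, exact paired permutation test, two-sided, p = 0.25, the lowest possible). Left flanks held one in 36.4%, 28.6% and 7.69%, so replicate 1 showed no excess over the left, and the difference of 19.8 ± 17.2 points was above 0 in 2 of 3 replicates (exact p = 0.5). Between the members and all other summits the difference was -0.21 ± 12.0 points (exact p = 1), and its spread was far larger than its mean. In the whole lists the members' shares were 25%, 26.4% and 26.6%, against 31.3%, 28.8% and 30.6% for all other summits (-4.22 ± 1.97 points, lower in 3 of 3 replicates, exact p = 0.25).

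**Figure D5:**
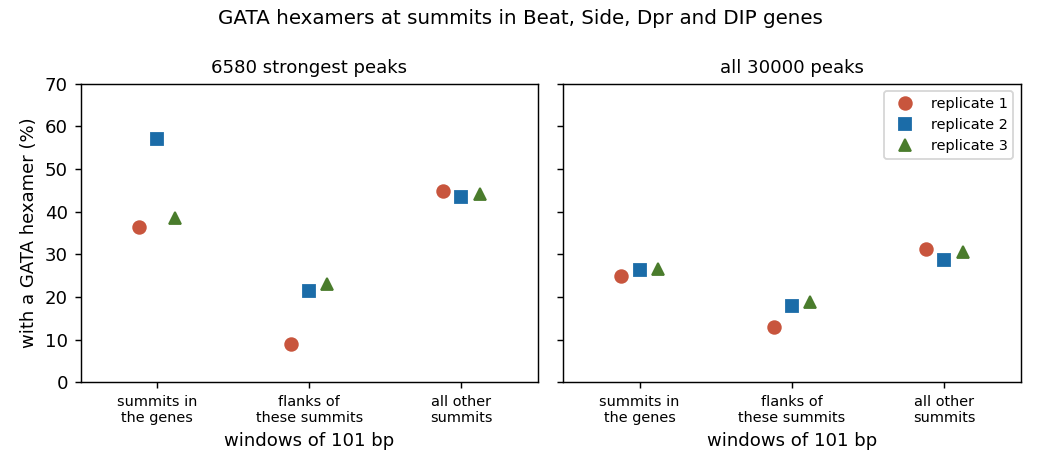
Share of windows of 50 bp to either side with a GATA hexamer (y axis, percent) at summits in the Beat, Side, Dpr and DIP genes, at flanks 500 bp to the right of them, and at all other summits, for the 6580 strongest peaks (left) and all 30000 peaks (right) of each replicate. Each symbol is 1 replicate, offset sideways by replicate. On the left the genes' summits lie at 36.4% to 57.1%, above their flanks at 9.09% to 23.1%, and on the right at 25% to 26.6%.

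Of the members' 137 pooled summits, 61 (44.5%) lay in peaks overlapped in all 3 replicate lists, against 63.4% of all pooled peaks, and 6 (4.38%) in none, against 1.49%. The members' pooled summits also ranked lower, and the part of rank in these shares was not tested. All 8 optimal summits were overlapped in all 3 lists, and 7 by a peak among the 6580 strongest of each. The optimal list was itself made from these replicates, so this overlap is no independent support. With only optimal peaks among the 6580 strongest of every replicate, the density was 0.272 per 100 kb in members and 3.93 in all protein-coding genes. With all optimal peaks it was 0.311 and 5.75. Replicate 2 stood apart in its weak peaks. Its whole list put 178 summits in 42 members (77.8%), against 132 in 35 members (64.8%) for replicate 1 and 128 in 32 members (59.3%) for replicate 3. That list reached more genes of every kind, with a summit in 61% of all protein-coding genes, against 51.9% and 48.9% for replicates 1 and 3. A share of 52.8% of its member summits was overlapped in neither other replicate, against 24.1% of all its peaks. For replicate 1 that share was 25%, against 12.9%, and for replicate 3 it was 19.5%, against 14.2%. Its part in the pooled counts was not tested.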

How the data were processed

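Peak lists came from anti-GFP ChIP-seq of 3 biological replicates, with chromatin sheared to 200 to 800 bp per the labels. Per the deposited file descriptions, the authors called peaks and background in each replicate and in the pooled alignments against a control, and thresholded them by the IDR method to the optimal list. No aligner, peak caller or setting is named in the labels or file descriptions, and the control is not analysed here. The signal value is the authors' own, on a scale that is not stated, and was used only to rank peaks within a list. The −log10 q-value deposited by the authors is capped at 4.21 in the optimal list and was not used for ranking. The summit offset, deposited by the authors in bp from the peak start, gave each summit. Lists on dm3 were not used.

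Summits were placed on the Ensembl release 115 annotation of genome release 6, with 18164 genes on the main arms after transposable element genes were left out, and 0 peaks ran past the end of an arm. The upstream reach was 1000 bp, replicate overlap needed 1 bp, and a peak's rank in a replicate was that of the strongest overlapping peak. Some pooled peaks overlap each other, as in dpr6, beat-IIb and side-V, and each of their summits was counted. A gene's strongest peak in a replicate was the strongest with its summit in the territory. Hexamers were searched within 50 bp of the summit and in a window centred 500 bp to the right. Members and lists, including the partner pairings and the other Ig-domain genes, were chosen with earlier results of these data known. Every member was named with its optimal summits, and fuller values went to the strongest optimal peaks, the partner pairings, the 4 strongest other Ig-domain genes, and unc-5, Fas2 and Nrg. The rule set for printed sequences gave 0 summits, since it required an optimal summit with a hexamer, over 1000 bp from a TSS and outside UTRs, and left out 1 chromosome arm on which side-V lies, so the printed windows were chosen after the values had been seen. Genes with the most weak peaks, and those at the threshold, were singled out in the same way. Counts stand beside the same count over all protein-coding genes, and replicates were compared by an exact paired permutation test, whose p-values measure only the spread between these 3 samples. The scripts, in Python 3.11.15 with numpy 2.4.6, scipy 1.17.1 and matplotlib 3.10.9, were tested on simulated data. Alternatives changed the upstream reach, the assignment rule, the peak set, the overlap, the window, the flank, the TSS distance and the replicates.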

Additional observations from a re-analysis of the deposited data

How the results depend on the processing

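The count of 5 members with an optimal summit was 4 or 5 under other upstream reaches, the nearest-TSS rule and both replicate overlap rules. It was 3 with the stronger 50% of the optimal peaks (against 15.7% of all protein-coding genes) and 29 with all pooled peaks. With peaks that held a hexamer (against 14.6%), and with summits in 1 territory only (against 14.5%), alternatives chosen after seeing the data, it was 3 each. The other Ig-domain genes had 13, 31 and 12 under the stronger 50%, the pooled list and the hexamer rule. With all pooled peaks the members' density was 5.32 per 100 kb, their hexamer share 22.6% and their share within 500 bp of a TSS 18.2%. Without dpr21 and DIP-lambda, which lie over 1 Mb from any optimal summit, the density was 0.387 per 100 kb, also an alternative chosen after seeing the data. The difference in hexamer share between the members and other summits turned positive with the strongest 50% of those peaks (14.4 points) and with 25 bp to either side (8.68 points). The difference in TSS share turned to -10.6 points with all peaks of each replicate. Leaving out each replicate in turn did not remake the optimal list, which the authors made from all 3 replicates. It only kept fewer of those peaks, so the counts could not rise. All protein-coding genes with a kept summit were 20.04% to 20.9%, against 25.5%. The values were 5 members each time, 16 to 17 other Ig-domain genes and 0.272 to 0.311 summits per 100 kb. The hexamer share was 57.1% to 62.5% and the TSS share 62.5% to 71.4%. The hexamer excess over flanks was 9.45 points with all peaks of each replicate and 19.8 points with the left flank. Without each replicate in turn it was 21.3 to 31.5 points, the hexamer difference from other summits -7.12 to 3.96 points (3.96 without replicate 1 and 2.52 without replicate 3) and the TSS difference 7.38 to 18.4 points. The causes were not tested. No paired analysis was possible because the labels give only 1 group, so that no replicate numbers are shared between groups, and the replicate tests compare sets of peaks within each replicate. Depth is unknown, so an absent peak may be one that was not detectable, and 8 optimal summits in 5 genes leave shares among them imprecise.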

Other observations

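Letters bound by other factor classes were also counted under the members' 137 pooled summits. The homeodomain core TAATTA, read on both strands within 50 bp of the summit, was found at 5.84% of them, against 5.95% of all pooled and 5.76% of all optimal summits. The E-box CACCTG, read on both strands, was found at 4.38%, against 3.4% and 3.85%. The GAGA repeat GAGAGAG, read on both strands, was found at 0 of 137, against 2.23% and 2.95%. A rough upper bound for a count of 0 is 2.19%, close to the 2.23% of all pooled summits, so this count does not tell those shares apart. Among the GATA hexamers, AGATAG was found at 2.19% of the members' pooled summits, against 6.42% of all pooled summits, and TGATAA at 12.4%, against 13.9%.

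The longest members with no summit in any list were DIP-lambda, at 379081 bp, and dpr21, at 124513 bp. Their nearest optimal summits lay 4.95 Mb and 2.46 Mb away. Repeat-masked bases made up 32.2% of the DIP-lambda territory and 27.1% of that of dpr21, against 21% of all members' territories. Among the other members with no summit in any list it was 39.1% in dpr7 and 13.6% to 18.9% in the rest. In dpr2 and dpr3, which held pooled summits, it was 31.7% and 30.1%. The part of masked sequence in these counts was not tested.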
